A study of Mus musculus with 6 samples.

Results

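The subject is a set of 10 transcription factors that steer CD8 T cells towards effector function: Tbx21, Eomes, Prdm1, Id2, Zeb2, Bhlhe40, Irf4, Irf8, Batf and Runx3. Each was read from the brightest array probe whose annotation carries that gene symbol alone, and each had exactly 1 such probe. They are 10 of the 19929 genes measured, and all 10 were among the 13950 genes whose mean over the 6 arrays was high enough to be tested. Prdm1 passed that limit only through its level in Rip-B7xAI4, since all 3 AI4 arrays lay under it, while the other 9 had means over it in both groups. RNA came from CD8 T cells sorted out of mouse pancreas by CD8 staining together with an H-2Db tetramer that carries the MimA2 peptide and binds the transgenic AI4 antigen receptor. There were 3 arrays from Rip-B7xAI4 mice, which resisted type 1 diabetes, and 3 from AI4 mice, which developed it. All mice carried the AI4 receptor on a C57BL/6.H2g7/g7 background. In the Rip-B7xAI4 mice the rat insulin promoter also drove B7x (gene Vtcn1), a ligand that inhibits T cells, so that beta cells make it. Suspensions from several pancreata were pooled for sorting, and neither the number of mice per array nor their age is given in the sources used here. The transgene and the disease state of the mice cannot be told apart. The labels call the arrays biological replicates, and a p-value measures only the spread between them.

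When a naive CD8 T cell meets antigen, signals from its receptor and from cytokines induce a set of factors that open effector genes and silence genes of the resting state. The T-box proteins T-bet (Tbx21) and Eomesodermin (Eomes) and the runt protein Runx3 activate genes such as those of interferon gamma, perforin and granzymes. Batf and Irf4 act early after antigen contact, and Id2, Zeb2 and Blimp-1 (Prdm1) favour short-lived effector cells over memory cells.

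The factors differed among themselves. Id2 and Bhlhe40 had the largest differences, with log2 differences near 3. The estimate for Runx3 was near 0, with a 95% interval of -1.02 to 1.02, and the intervals of Irf4 and Batf included 0. In between, Zeb2, Irf8, Eomes, Tbx21 and Prdm1 had values about 1 log2 unit or more above AI4. Of these, Eomes had groups that overlapped and an interval that also included 0. The difference, Rip-B7xAI4 minus AI4, was positive for all of the 9 factors measured above the limit in both groups and for 5437 of all 13950 tested genes, with a median of 1.04 log2 against -0.10 over all tested genes. None of the 10 passed an adjusted p of 0.05 in limma, where 0.00717% of all tested genes passed. Without adjustment, 5 of those 9 had a higher value with p under 0.05 in limma, against 5.56% of all tested genes. For the same 5 (Id2, Bhlhe40, Zeb2, Irf8 and Tbx21) every Rip-B7xAI4 array lay above every AI4 array, which held for 5.99% of all tested genes. Both also held for Prdm1, which is not counted here because a gene that passes through its higher group had to differ. Zeb2 and Irf8 were no longer under an unadjusted p of 0.05 in either fit that addressed the RNA of other cells described below. In those fits Id2, Bhlhe40, Tbx21 and Eomes were, against 3.67% of all tested genes with Rip-B7xAI4 replicates 1 and 3 left out. With a macrophage covariate that share was 3.28%. Prdm1 was also under an unadjusted p of 0.05 in both fits, but is again not counted.

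**Figure D1:**
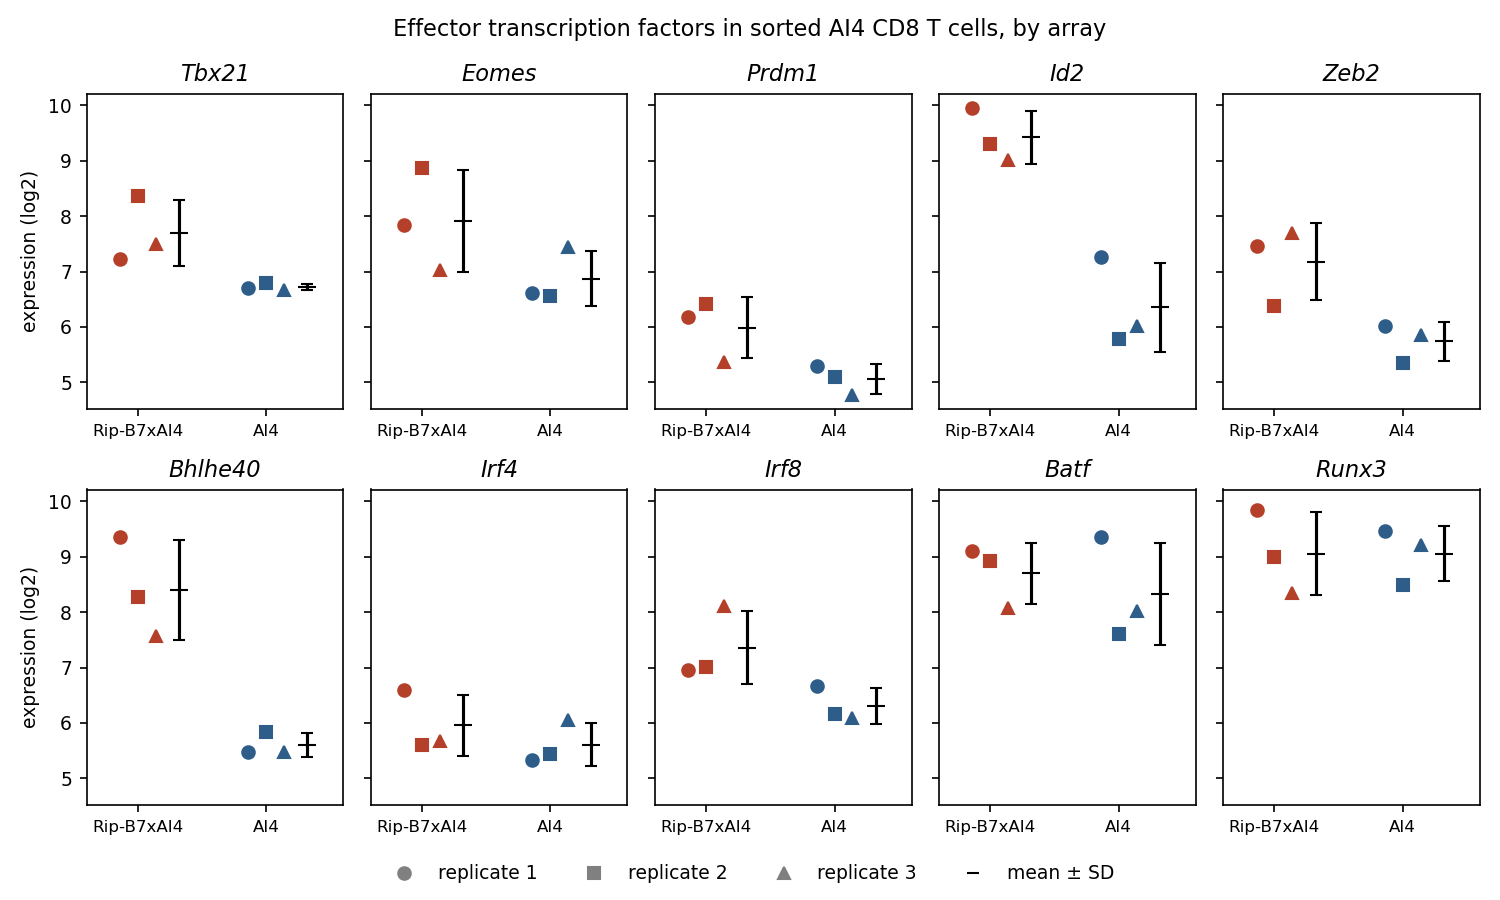
Log2 expression (vertical axis) of the 10 factors in each array, with Rip-B7xAI4 to the left and AI4 to the right in each panel, marker shapes for the replicates, and the mean ± SD (n = 3) beside each group. The groups are separate for Id2, Bhlhe40, Zeb2, Irf8, Tbx21 and Prdm1 and overlap for Eomes, Irf4, Batf and Runx3.

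The cells sorted as CD8 T cells carried T cell RNA in every array. The mean over 11 T cell markers lay between 9.48 and 10.23 log2 in Rip-B7xAI4 and between 9.62 and 10.15 log2 in AI4. Other cells left RNA in some arrays too. The mean over 19 monocyte and macrophage markers was 8.47, 5.92 and 8.51 log2 in Rip-B7xAI4 replicates 1, 2 and 3, against 6.32, 5.79 and 6.14 log2 in AI4. Rip-B7xAI4 replicates 1 and 3 therefore stood apart, and replicate 2 lay within the AI4 range. Of the 18 tested among those markers, 3 (Cd68, Fcer1g and Clec7a) had no overlap between the groups, with Rip-B7xAI4 above. This held for 5.99% of all tested genes. Clec7a passed the limit for testing only through Rip-B7xAI4, with a mean of 6.65 log2 there and 5.45 log2 in AI4, so it had to differ. Adgre1, Mrc1 and Mertk, whose groups overlapped, also passed only that way. Lyz2, the macrophage lysozyme, read 11.40, 5.59 and 9.64 log2 in Rip-B7xAI4 and 7.36, 4.73 and 7.57 log2 in AI4. The 12 markers of conventional dendritic cells averaged 6.86, 6.23 and 7.77 log2 in Rip-B7xAI4 and between 6.13 and 6.36 log2 in AI4. These lists matter here because Zeb2, Irf8, Id2, Batf and Bhlhe40 are also expressed by myeloid cells. The 7 markers of NK and innate lymphoid cells averaged 6.30, 6.15 and 6.16 log2 in Rip-B7xAI4 and between 5.93 and 6.05 log2 in AI4. No other list mean lay above AI4 in every Rip-B7xAI4 array, replicate 2 included. Of these markers, 3 (Klrb1c, Klre1 and Rora) had no overlap, with Klrb1c and Klre1 too dim to test. Il7r and Gata3 had negative log2 differences (-1.12 and -0.10). In bulk RNA, fewer cells of a type and less RNA per cell cannot be told apart. The part of such cells in the differences was not tested, but the factors are given below also for the fit in which Rip-B7xAI4 replicates 1 and 3 were left out. With these left out the spread comes from the AI4 arrays alone, and the single Rip-B7xAI4 array kept is taken to share it. Neither that fit nor a macrophage covariate addresses the NK and innate lymphoid markers, whose mean was above AI4 in replicate 2 as well.

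Id2 encodes an inhibitor of DNA binding that captures E proteins and so keeps them from their targets, and it sustains effector CD8 T cells. It read 9.96, 9.30 and 9.02 log2 in the Rip-B7xAI4 arrays, against 7.27, 5.78 and 6.01 log2 in the AI4 arrays. The lowest Rip-B7xAI4 array was 1.75 log2 units above the highest AI4 array, which was replicate 1. Means were 9.43 ± 0.48 log2 in Rip-B7xAI4 and 6.35 ± 0.80 log2 in AI4 (SD, n = 3 each). The log2 difference was 3.08 ± 0.44 (SE), with a 95% interval of 2.02 to 4.13 and an adjusted p = 0.157 in limma, and it ranked 17 among all tested genes by size in either direction. It was 2.95 ± 0.66 with Rip-B7xAI4 replicates 1 and 3 left out, and 2.85 ± 0.62 with the mean of the macrophage markers as a covariate. In AI4 replicates 2 and 3 its signal lay below the median of the array, so the size of the difference is limited by an unmeasured background. The 250 bases before its transcription start (chr12:25096093-25096342, minus strand, RefSeq, build GRCm38.p6) are shown because Id2 had the largest difference of the set. None of the 5 specific motifs looked for below is in this window, so it has no capitals, and it holds 1 general E-box (CANNTG) as CAGCTG.
Id2 promoter: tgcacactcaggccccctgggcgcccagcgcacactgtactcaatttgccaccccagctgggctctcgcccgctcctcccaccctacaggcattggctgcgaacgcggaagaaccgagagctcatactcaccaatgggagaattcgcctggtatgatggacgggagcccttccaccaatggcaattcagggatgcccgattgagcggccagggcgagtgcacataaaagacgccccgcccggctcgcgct

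Bhlhe40 (also called Dec1 or Stra13) encodes a helix-loop-helix repressor that antigen receptor signals induce and that supports cytokine production and mitochondrial function in T cells. Its log2 values were 9.36, 8.27 and 7.58 in Rip-B7xAI4, against 5.48, 5.85 and 5.48 in AI4. The AI4 arrays lay within 0.37 log2 units of each other and below the array medians, while the Rip-B7xAI4 arrays spread over 1.79 log2 units. As for Id2, the size of the difference is therefore limited by an unmeasured background. Means were 8.40 ± 0.90 log2 in Rip-B7xAI4 and 5.60 ± 0.21 log2 in AI4 (SD, n = 3 each). The log2 difference was 2.80 ± 0.44 (SE, 95% interval 1.76 to 3.84), with an adjusted p = 0.167 in limma, and it ranked 25 by size in either direction. With Rip-B7xAI4 replicates 1 and 3 left out it was 2.67 ± 0.29, and with the macrophage covariate 2.74 ± 0.63. Array weights, which count arrays that depart from their group less, brought Id2 to an adjusted p of 0.0393 and Bhlhe40 to 0.0491 in limma. Under the other alternatives neither passed.

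**Figure D2:**
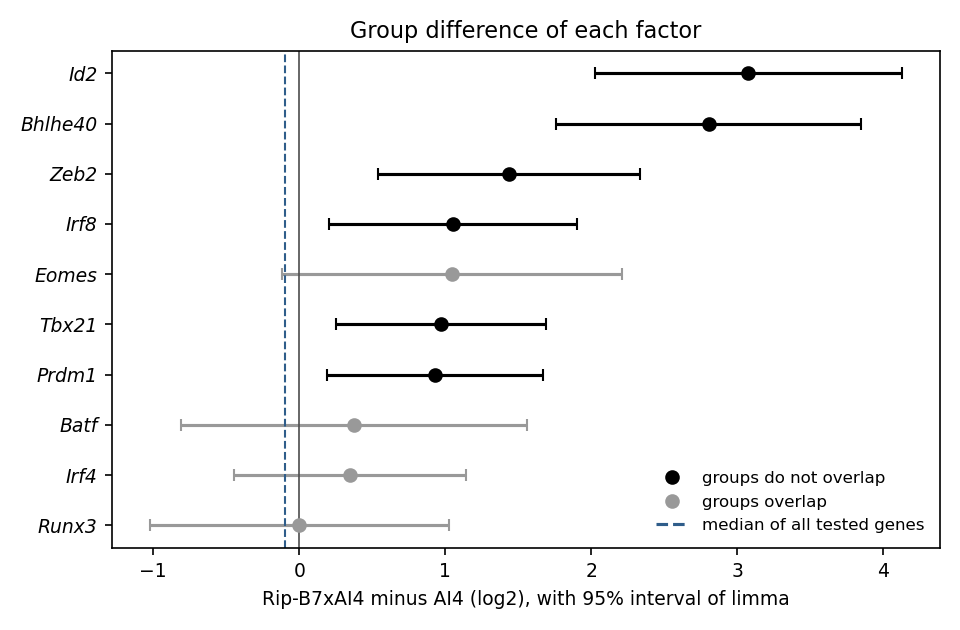
Log2 difference, Rip-B7xAI4 minus AI4, of each factor (point) with its 95% interval from limma, ordered by size; black points have groups that do not overlap, and the dashed line is the median over all tested genes (-0.10). Id2 (3.08) and Bhlhe40 (2.80) stand to the right of all others, and the intervals of Eomes, Batf, Irf4 and Runx3 include 0.

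Of the pair of T-box factors, Tbx21 encodes T-bet, which drives interferon gamma and the terminal effector state. It stood at 7.22, 8.36 and 7.50 log2 in Rip-B7xAI4, against 6.70, 6.79 and 6.67 log2 in AI4. The AI4 arrays were nearly equal and all Rip-B7xAI4 arrays lay above them, with replicate 2 highest. Means were 7.69 ± 0.59 log2 in Rip-B7xAI4 and 6.72 ± 0.06 log2 in AI4 (SD, n = 3 each). Its log2 difference was 0.97 ± 0.30 (SE, 95% interval 0.25 to 1.69), with an adjusted p = 0.493 in limma. Eomes encodes Eomesodermin, the relative of T-bet that is linked to memory and to exhausted cells. Its values were 7.84, 8.88 and 7.03 log2 in Rip-B7xAI4, against 6.61, 6.56 and 7.44 log2 in AI4. Here the groups overlapped, because AI4 replicate 3 exceeded Rip-B7xAI4 replicate 3. Its log2 difference of 1.04 ± 0.49 (SE) had a 95% interval of -0.12 to 2.21 and an adjusted p = 0.575 in limma.

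Both T-box genes were highest in Rip-B7xAI4 replicate 2, the array with the macrophage markers at the AI4 level. That array exceeded the AI4 mean by 1.64 log2 for Tbx21 and 2.00 log2 for Eomes. Their differences were larger with the macrophage markers as a covariate, at 1.56 ± 0.25 (SE) for Tbx21 and 1.87 ± 0.49 for Eomes on the log2 scale, with adjusted p of 0.574 and 0.849 in limma. With Rip-B7xAI4 replicates 1 and 3 left out they were 1.64 ± 0.25 and 2.00 ± 0.45 log2. Without Rip-B7xAI4 replicate 2 they were smaller, at 0.64 ± 0.21 log2 for Tbx21 and 0.56 ± 0.39 log2 for Eomes, so their size rests in part on that array. The 250 bases before the Tbx21 start (chr11:97115332-97115581, minus strand, RefSeq, build GRCm38.p6) are shown because they hold an E-box of the kind Zeb2 binds, printed in capitals 196 to 191 bases before the start.
Tbx21 promoter: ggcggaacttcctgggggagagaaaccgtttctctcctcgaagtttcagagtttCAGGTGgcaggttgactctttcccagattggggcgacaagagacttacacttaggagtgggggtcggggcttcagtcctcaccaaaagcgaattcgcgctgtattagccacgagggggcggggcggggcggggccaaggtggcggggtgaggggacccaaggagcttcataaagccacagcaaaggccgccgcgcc

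Prdm1 and Zeb2 encode repressors that act with T-bet in terminal effector cells. Prdm1 encodes Blimp-1, a zinc finger protein that silences memory genes. It read 6.18, 6.42 and 5.36 log2 in Rip-B7xAI4, against 5.30, 5.10 and 4.77 log2 in AI4. The groups did not overlap, but the nearest pair, Rip-B7xAI4 replicate 3 and AI4 replicate 1, was only 0.07 log2 units apart. The gene was dim, above the array median in 2 of 6 arrays. Its log2 difference was 0.93 ± 0.31 (SE, 95% interval 0.19 to 1.67), with an adjusted p = 0.512 in limma, and 1.36 ± 0.31 with Rip-B7xAI4 replicates 1 and 3 left out. The unadjusted p was over 0.05 without Rip-B7xAI4 replicate 1 (0.84 ± 0.36 log2), Rip-B7xAI4 replicate 2 (0.71 ± 0.32 log2) or AI4 replicate 3 (0.79 ± 0.35 log2).

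Zeb2, a zinc finger and homeodomain repressor that T-bet induces in effector CD8 T cells, was high in the same arrays as the macrophage markers. Its log2 values were 7.47, 6.39 and 7.69 in Rip-B7xAI4, against 6.02, 5.35 and 5.86 in AI4. Replicates 1 and 3 of Rip-B7xAI4 were high and replicate 2 was 0.36 log2 units above the highest AI4 array. The log2 difference was 1.44 ± 0.38 (SE, 95% interval 0.54 to 2.33), with an adjusted p = 0.433 in limma. It was 0.64 ± 0.36 with Rip-B7xAI4 replicates 1 and 3 left out and 0.67 ± 0.28 with the macrophage covariate, with unadjusted p of 0.141 and 0.0528 in limma. RefSeq lists 4 start windows for Zeb2, and the 250 bases of the one below (chr2:45110278-45110527, minus strand, build GRCm38.p6) are shown because they hold 2 AP-1 elements, the kind of site that Batf and Jun proteins share. They are in capitals, 189 to 183 and 132 to 126 bases before the start.
Zeb2 promoter: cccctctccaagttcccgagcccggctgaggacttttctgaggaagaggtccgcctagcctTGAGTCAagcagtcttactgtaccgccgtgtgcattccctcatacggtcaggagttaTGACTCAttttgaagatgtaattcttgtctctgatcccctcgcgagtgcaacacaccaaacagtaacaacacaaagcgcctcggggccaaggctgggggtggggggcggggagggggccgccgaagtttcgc

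Irf4, Batf and Irf8 are linked by shared binding sites, since Irf4 and Irf8 bind weakly alone and join Batf on composite elements. Irf4 measures antigen receptor signal strength in T cells. Its log2 values were 6.59, 5.60 and 5.68 in Rip-B7xAI4, against 5.33, 5.44 and 6.05 in AI4. Only Rip-B7xAI4 replicate 1 exceeded its array median, and the groups overlapped. The log2 difference was 0.35 ± 0.33 (SE), with a 95% interval of -0.44 to 1.14 and an adjusted p = 0.667 in limma. It was -0.0065 ± 0.38 with Rip-B7xAI4 replicates 1 and 3 left out. Batf, the AP-1 family partner, read 9.10, 8.93 and 8.07 log2 in Rip-B7xAI4, against 9.36, 7.61 and 8.02 log2 in AI4. Its highest array of all was AI4 replicate 1. The log2 difference was 0.37 ± 0.50 (SE), with a 95% interval of -0.81 to 1.56, and an adjusted p = 0.737 in limma. It was 0.89 ± 0.36 without AI4 replicate 1 and 0.01 ± 0.50 without AI4 replicate 2, so the value depends on which AI4 array is used. With Rip-B7xAI4 replicates 1 and 3 left out it was 0.60 ± 0.74.

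Irf8, a factor of effector CD8 T cells and also of dendritic cells, monocytes and B cells, had groups that did not overlap. It stood at 6.95, 7.01 and 8.12 log2 in Rip-B7xAI4, against 6.67, 6.17 and 6.08 log2 in AI4. Replicate 3 of Rip-B7xAI4 was more than 1 log2 unit above the other arrays. The same array was the highest of the 6 for 7 of the 12 dendritic cell markers, a count that was not set against all tested genes. Of these 7, Clec9a and Xcr1 mark cross-presenting dendritic cells and were singled out after their values were seen. They were too dim to be tested. Clec9a read 4.63, 4.36 and 7.85 log2 in Rip-B7xAI4, against 4.43, 4.56 and 4.53 log2 in AI4. Xcr1 read 4.82, 4.57 and 7.75 log2 in Rip-B7xAI4, against 5.05, 5.46 and 4.73 log2 in AI4. Other genes of the list did not follow. Batf3, a factor of the same dendritic cells, read 5.93, 6.15 and 6.36 log2 in Rip-B7xAI4, against 6.65, 6.30 and 5.94 log2 in AI4. Zbtb46 read 6.01 log2 in Rip-B7xAI4 replicate 3 and between 5.61 and 5.97 log2 in AI4, and Ccr7 was lowest of all in that replicate, at 7.76 log2. The log2 difference of Irf8 was 1.05 ± 0.36 (SE, 95% interval 0.20 to 1.90), with an adjusted p = 0.513 in limma. Without Rip-B7xAI4 replicate 3 it was 0.67 ± 0.25, again with no overlap between the groups, with Rip-B7xAI4 replicates 1 and 3 left out 0.70 ± 0.34 (unadjusted p = 0.1004 in limma), and with the macrophage covariate 0.70 ± 0.47 (unadjusted p = 0.188 in limma). The unadjusted p was also over 0.05 without AI4 replicate 2 (0.98 ± 0.43) or AI4 replicate 3 (0.94 ± 0.42). The part of dendritic cell RNA in the difference was not tested.

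Runx3, the runt factor that fixes CD8 identity and opens effector genes, did not separate the groups. It read 9.85, 8.99 and 8.35 log2 in Rip-B7xAI4, against 9.47, 8.49 and 9.22 log2 in AI4. Both the highest and the lowest of the 6 values came from Rip-B7xAI4. Means were 9.06 ± 0.75 log2 in Rip-B7xAI4 and 9.06 ± 0.50 log2 in AI4 (SD, n = 3 each), with a 95% interval of the difference of -1.02 to 1.02 log2. Its adjusted p was 1.00 in limma, and with Rip-B7xAI4 replicates 1 and 3 left out the difference was -0.071 ± 0.45 log2. RefSeq lists 2 start windows. The 250 bases before the upstream start (chr4:135120395-135120644, plus strand, build GRCm38.p6) are shown because they hold 2 RUNX elements, printed in capitals as ACCACA, the reverse complement of TGTGGT, at 134 to 129 and 126 to 121 bases before the start, and an E-box of the kind Zeb2 binds at 233 to 228 bases.
Runx3 promoter: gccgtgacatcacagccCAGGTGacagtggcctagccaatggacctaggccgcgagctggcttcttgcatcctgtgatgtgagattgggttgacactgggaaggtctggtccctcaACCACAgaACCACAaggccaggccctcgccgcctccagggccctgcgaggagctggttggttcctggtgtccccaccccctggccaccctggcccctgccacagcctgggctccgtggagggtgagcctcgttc

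Promoter windows were found for 9 of the 10 factors, 14 windows in all, and were searched on both strands in the 250 bases before each start. The letters searched were CACGTG (an E-box bound by Bhlhe40), CACCTG (an E-box bound by Zeb2), GGTGTGA (a T-box element), TGTGGT (a RUNX element), TGANTCA (an AP-1 element) and CANNTG (any E-box, which includes the first 2 of these). Of 32817 windows of all genes, 6.02%, 17.2%, 3.33%, 14% and 6.75% held the first 5 in that order, and 66.2% held any E-box. Among the factors, the Zeb2 type of E-box was found for Tbx21, Prdm1, Runx3 and Irf8 in 1 window each. RUNX elements were found for Runx3 and Batf, 2 in each, and AP-1 elements for Zeb2 (2) and Prdm1 (1). No window of the set held CACGTG or GGTGTGA. These matches describe the letters in the windows and are not evidence of binding.

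The Rip-B7xAI4 arrays differed in which factors were highest. Within that group, 5 factors peaked in replicate 1 (Id2, Bhlhe40, Irf4, Batf and Runx3), 3 in replicate 2 (Tbx21, Eomes and Prdm1) and 2 in replicate 3 (Zeb2 and Irf8). Replicate 1 exceeded the AI4 mean by 3.76 log2 for Bhlhe40 and by 3.60 log2 for Id2, while replicate 3 did so by 1.97 and 2.67 log2. For Runx3 the same 2 arrays deviated by 0.79 and -0.71 log2. Within AI4, replicate 1 was the highest array for 6 of the 10 factors, Id2 and Batf among them. These counts were not set against all tested genes, so they are not read as particular to the factors. The arrays also differed in spread over all probes. The interquartile range was 2.13, 1.935 and 1.81 log2 in Rip-B7xAI4 replicates 1, 2 and 3, and 1.71, 1.76 and 1.95 log2 in AI4.

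**Figure D3:**
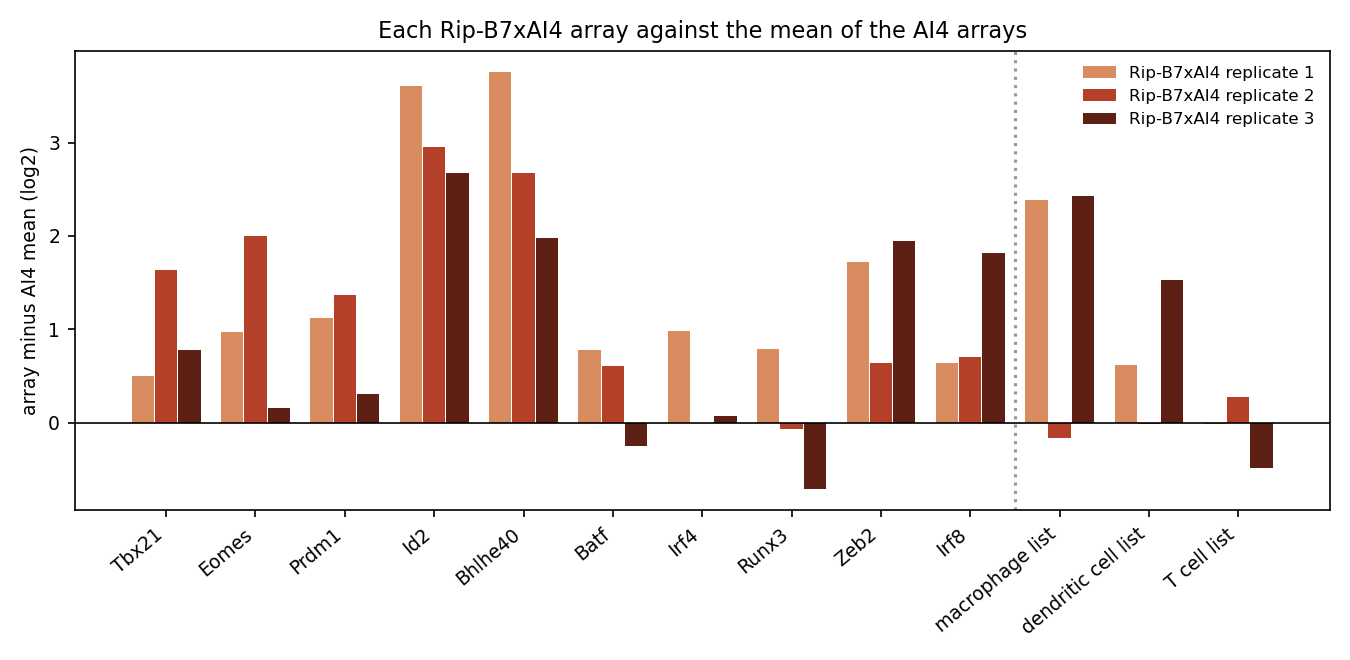
Log2 value of each Rip-B7xAI4 array minus the mean of the 3 AI4 arrays, for the 10 factors and, right of the dotted line, for the means of 3 marker lists. Tbx21, Eomes and Prdm1 are highest in replicate 2, where the macrophage list is at the AI4 level, and Zeb2 and Irf8 are highest in replicate 3.

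Effector and memory regulators are often described as opposed pairs, so the value of a factor minus that of its counterpart was followed within each array for 6 pairs. Only its difference between groups was read, not the level of one gene against another. The balance of Id2 over Id3, the related inhibitor that favours memory cells, was 3.17, 3.11 and 2.86 log2 in Rip-B7xAI4, against 0.88, -0.95 and -0.59 log2 in AI4. It was the only pair without overlap, with a difference of 3.27 log2 that came from Id2, as Id3 itself differed by -0.19 ± 0.23 (SE). The exact permutation p was 0.1, the smallest that 3 arrays against 3 allow, and 0.4 adjusted over the 6 pairs. The balance of Zeb2 over Zeb1 differed by 1.61 log2 (exact permutation p = 0.2). In AI4 replicate 1 it was -0.25 log2, within the range of Rip-B7xAI4, because Zeb1 was low in that array at 6.28 log2.

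Prdm1 over Bcl6, its antagonist in lymphocytes, differed by 0.95 log2 (exact permutation p = 0.2), and Bcl6 itself by -0.02 ± 0.20 (SE). Batf over Bach2, a repressor that competes for AP-1 sites, differed by 0.75 log2 and Runx3 over Runx1 by -0.57 log2, with an exact permutation p of 0.4 each. Bach2 itself differed by -0.38 ± 0.22 log2 (SE). Tbx21 over Eomes differed by -0.07 log2 (exact permutation p = 1), with values of -0.62, -0.52 and 0.47 log2 in Rip-B7xAI4 and 0.09, 0.22 and -0.77 log2 in AI4. Within both groups replicate 3 stood away from the other 2 arrays, in opposite directions.

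**Figure D4:**
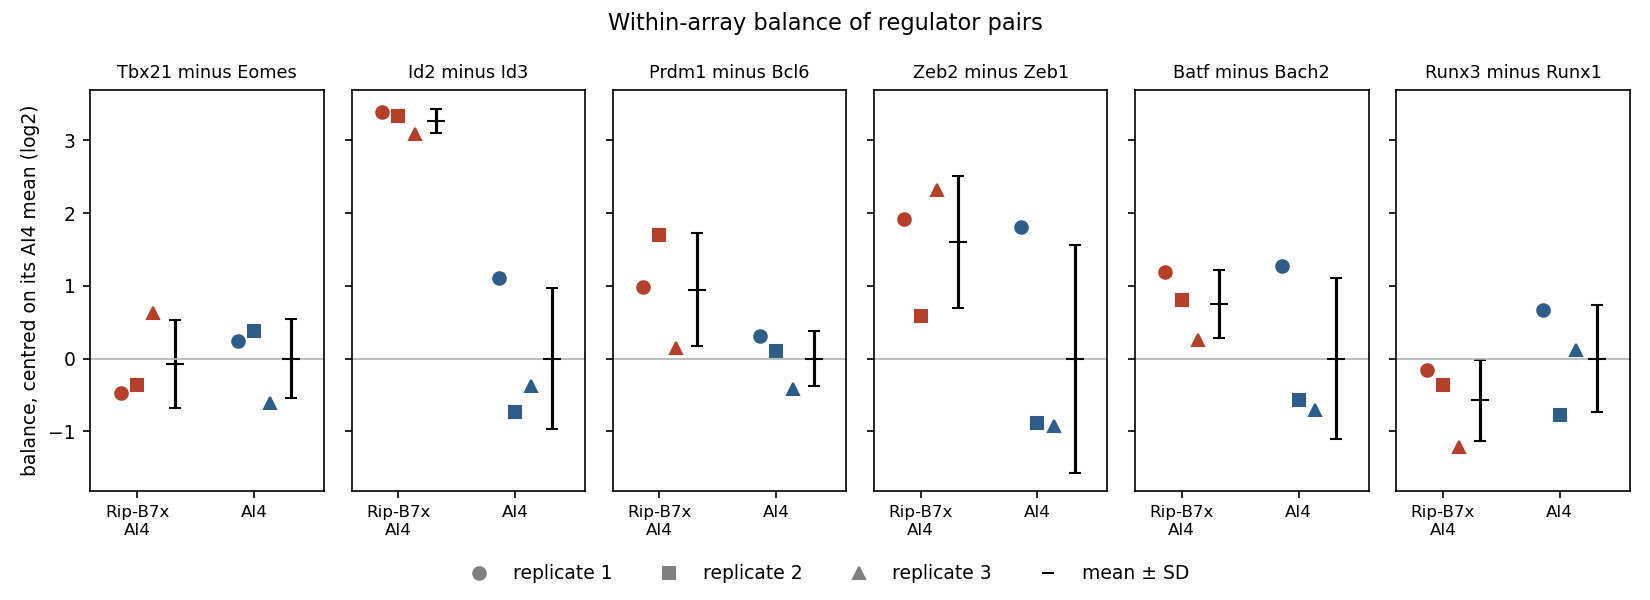
Log2 value of the first gene minus that of the second in each array, centred on the AI4 mean of that pair, for 6 pairs, with Rip-B7xAI4 left and AI4 right in each panel and the mean ± SD (n = 3) beside each group. Only Id2 minus Id3 separates the groups.

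Relatives of the factors had differences of both signs. Of 18 tested genes from the same protein families, 8 had positive and 10 negative differences, with a median of -0.16 log2 against -0.10 over all tested genes. None passed in limma. At an unadjusted p under 0.05, 1 of the 18 had a higher value, about the share over all tested genes (5.56%). This was Runx1, which read 7.98, 7.33 and 7.54 log2 in Rip-B7xAI4, against 6.78, 7.26 and 7.08 log2 in AI4 (log2 difference 0.58 ± 0.23, SE). Irf7, a factor of interferon induction, differed by 0.51 ± 0.30 log2, Irf1 by -1.28 ± 0.78 log2 and Id4 by -0.29 ± 0.19 log2 (SE). Irf1 was far higher in AI4 replicate 1, at 10.15 log2, than in any other array.

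Among 19 tested partner genes, 11 had positive and 8 negative differences, the median was 0.05 log2, and 0 passed in limma. At an unadjusted p under 0.05, 1 of the 19 had a higher value, about the share over all tested genes (5.56%). This was Cbfb, the subunit that all Runx proteins need to bind DNA. It read 9.38, 9.53 and 9.12 log2 in Rip-B7xAI4, against 8.91, 8.86 and 8.53 log2 in AI4. Its lowest Rip-B7xAI4 value was above its highest AI4 value, with a log2 difference of 0.58 ± 0.20 (SE) and an adjusted p = 0.516 in limma. Tcf4, an E protein that Id2 can bind, differed by 0.54 ± 0.33 log2, and Stat3, a cytokine signal transducer, by 0.78 ± 0.50 log2 (SE). Spi1, which encodes the myeloid factor PU.1, read 7.76, 5.55 and 6.87 log2 in Rip-B7xAI4 and 5.63, 5.91 and 5.46 log2 in AI4, high in the same arrays as the macrophage markers.

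Regulators of naive and memory cells mostly had negative differences, 11 of 14 tested, against 8513 of all 13950 tested genes, with a median of -0.22 log2. None passed in limma. Foxp1 and Satb1 were lower at an unadjusted p under 0.05, which 3.17% of all tested genes were. With Bcl11b, they were the 3 with no overlap and Rip-B7xAI4 below, which 11.9% of all tested genes were. Eomes, which is also on this list, was 1 of the 3 with a positive difference. Bach2, counted among the 11, passed the limit for testing only through AI4. Its mean was 5.79 log2 there and 5.42 log2 in Rip-B7xAI4, so its sign was fixed.

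Genes reported as targets of these factors in CD8 T cells mostly had positive differences. Of 20 tested, 16 were positive, against 5437 of all 13950 tested genes. The median log2 difference was 1.40 against -0.10 over all tested genes. For 15 the groups did not overlap, with Rip-B7xAI4 above, which held for 5.99% of all tested genes. Without adjustment 14 were higher and 1 lower at p under 0.05 in limma, against 5.56% and 3.17% of all tested genes. After adjustment 1 passed, the chemokine gene Ccl3, as did 0.00717% of all tested genes. Gzma, Ccl5 and Ifng followed by p, with log2 differences of 2.91 ± 0.35, 1.32 ± 0.19 and 3.47 ± 0.51 (SE). Zeb2 is on this list too; without it 15 of 19 were positive, 14 had no overlap and the median was 1.39 log2. Havcr2 is in all of these counts and medians, although it passed the limit for testing only through Rip-B7xAI4. Its mean was 7.69 log2 there and 5.41 log2 in AI4, so it had to differ. In the list were 3 genes too dim to test, Klrg1, Il10 and Itga1. Klrg1, a marker of terminal effector cells, read 5.34, 5.22 and 7.22 log2 in Rip-B7xAI4 and between 4.81 and 5.09 log2 in AI4, and so was high in 1 array.

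Genes upstream of the factors, for cytokine receptors and antigen receptor signals, showed no common direction. Of 17 tested, 9 were positive and 8 negative, with a median of 0.12 log2, and 0 passed in limma. Without adjustment 5 were higher and 1 lower at p under 0.05 in limma, against 5.56% and 3.17% of all tested genes. Both chains of the interleukin-18 receptor had positive log2 differences, Il18rap of 1.40 ± 0.43 and Il18r1 of 1.36 ± 0.45 (SE). Il18rap and Il2rb are also on the list of targets. Il2rb, the shared beta chain of the interleukin-2 and interleukin-15 receptors and a target of the T-box factors, differed by 1.08 ± 0.34 log2. Ifngr2, a chain of the interferon gamma receptor, differed by -1.35 ± 0.42 log2.

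**Figure D5:**
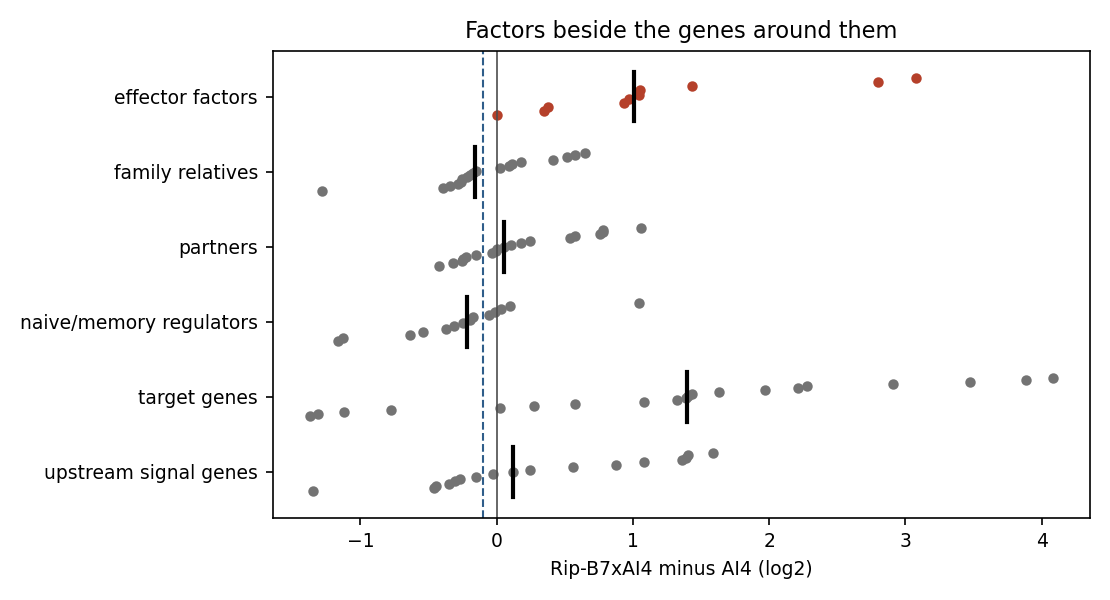
Log2 difference, Rip-B7xAI4 minus AI4, of every tested gene (point) in the set of factors and in 5 lists of genes around them, with the median of each list as a black bar; vertical positions within a list only spread the points, and the dashed line is the median over all tested genes (-0.10). The medians are 1.01 for the factors (1.04 without Prdm1) and 1.40 for their targets (with Zeb2 and Havcr2), and lie between -0.22 and 0.12 for the other lists.

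For each factor, the 3 tested genes with the nearest pattern were found by the root mean square distance of log2 values over the 6 arrays, after each gene was centred on its own mean. For Id2 these were Kif11 at 0.16, Casp1 at 0.35 and Ifng at 0.40 log2. For Bhlhe40 they were Gen1 at 0.26, Ncapg at 0.26 and Ccna2 at 0.38 log2. Prdm1 lay nearest to Spag5 (0.11), Dut (0.14) and Kif22 (0.14 log2), and Zeb2 to Cd44 (0.20), Chek1 (0.22) and Cdkn2c (0.24 log2). Tbx21 lay nearest to Cmc2 (0.16), Snx25 (0.18) and Fabp5 (0.19 log2), and Eomes to Zbtb44 (0.18), Commd3 (0.20) and Cdk5 (0.24 log2). Irf8 lay nearest to Cpox (0.13), Irf4 to Crnkl1 (0.08), Batf to AW112010 (0.07) and Runx3 to Gpbp1 (0.10 log2). They describe these 6 arrays only, since close matches arise readily among 13950 genes.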

How the data were processed

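Per the labels, total RNA of sorted cells was labelled with biotin after column purification. The arrays were summarised in Affymetrix Expression Console, per the submitters' processing notes, which name no version or algorithm. The deposited table holds 1 normalized value for each probe and array, which was taken to be log2 from its range and used as deposited by the authors (array medians 5.94 to 6.10). Of 28325 probes, 21760 carried 1 gene symbol in the platform annotation, 1621 several and 4944 none; 21669 matched a RefSeq gene (GRCm38.p6) by gene ID. The brightest probe of each gene was kept, and the 30% of genes with the lowest mean (under 5.47 log2) were not tested.

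Values were fitted with limma 3.58.1 (lmFit, eBayes) in R 4.3.3, with the group as the only term, two-sided, and Benjamini-Hochberg adjustment over all 13950 tested genes; the fit was tested on simulated data. Pairs of regulators were compared by a two-sided exact permutation test over arrays. Precision is limited by having 3 arrays per group.

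The factors, the 15 other gene lists, the pairs and the alternatives were chosen with earlier results of these data known. Genes named were all factors, the pairs, the 4 of each functional list with the smallest p, up to 3 leading markers of a cell type and the nearest patterns. Alternatives were the replicate number as a block, each array left out, Rip-B7xAI4 replicates 1 and 3 left out, a macrophage marker covariate, quantile normalization, median centring, other filters and probe rules, trend and robust eBayes, and array weights. A pseudocount was not needed for log2 values. The mean log2 level over further marker lists was, for plasmacytoid dendritic cells 6.38 to 7.30 in Rip-B7xAI4 and 6.55 to 6.75 in AI4, for B cells 5.56 to 6.19 in Rip-B7xAI4 and 5.55 to 6.00 in AI4, for NK and innate lymphoid cells 6.15 to 6.30 in Rip-B7xAI4 and 5.93 to 6.05 in AI4. It was, for CD4 and regulatory T cells 6.70 to 7.06 in Rip-B7xAI4 and 6.39 to 6.85 in AI4, for beta cells 5.22 to 5.53 in Rip-B7xAI4 and 5.40 to 5.73 in AI4, for acinar cells 5.87 to 6.01 in Rip-B7xAI4 and 6.03 to 6.08 in AI4, for stroma and endothelium 5.74 to 6.17 in Rip-B7xAI4 and 6.22 to 6.57 in AI4.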

Additional observations from a re-analysis of the deposited data

How the results depend on the processing

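Over 17 alternatives, the log2 differences of Id2 (2.79 to 3.54), Bhlhe40 (2.32 to 3.22) and Tbx21 (0.64 to 1.64) were positive with an unadjusted p under 0.05 in limma in each; those of Eomes (0.56 to 2.00), Zeb2 (0.64 to 1.83), Irf8 (0.67 to 1.26) and Batf (0.01 to 0.90) were positive in each, as was Prdm1 (0.71 to 1.36) in the 16 that tested it. The number of factors with a higher value at that limit, Prdm1 included, was 6 in the fit as reported. It was 4 to 7 when single arrays were left out. It was 5 with the macrophage covariate (Zeb2 and Irf8 lost, Eomes gained) and 8 with array weights. Over all 13950 tested genes, the number under that limit in either direction moved too. It was 1218 in the fit as reported and 765 to 1557 without single arrays. It was 993 with the replicate block, 573 with the macrophage covariate and 2399 with array weights. Past an adjusted p of 0.05 were 0 factors in each alternative but array weights, where 2 passed. Over all genes, 1 passed in the fit as reported, 0 to 22 without single arrays (22 without Rip-B7xAI4 replicate 2), 0 with Rip-B7xAI4 replicates 1 and 3 left out or with the macrophage covariate, and 38 with array weights. Runx3 turned negative without Rip-B7xAI4 replicate 1 or AI4 replicate 2 (range without single arrays -0.39 to 0.36), with Rip-B7xAI4 replicates 1 and 3 left out (-0.071), with the covariate (-0.15) and after quantile normalization (-0.18); Irf4 was -0.0065 with those replicates left out. The balance of Tbx21 over Eomes lay between -0.42 and 0.13 without single arrays, on both sides of 0. Of the 6 pairs, 1 to 4 did not overlap without single arrays and 2 with Rip-B7xAI4 replicates 1 and 3 left out. The cause of these shifts was not tested. With the replicate block 0 genes passed over all genes, against 1, and 6 factors were higher at an unadjusted p under 0.05, as without it. The replicate numbers did not pair the arrays: deviations of same-numbered arrays correlated at -0.08, 0.06 and -0.22 for replicates 1, 2 and 3 across genes, which are not independent. Median centring moved the median of all genes from -0.10 to -0.03 log2. Prdm1 and Irf4 were not tested with the 50% filter on dim genes.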
